A study of Rattus norvegicus with 8 samples.

Results

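Macrophage and myeloid transcripts were followed in cultures of rat ATII (alveolar epithelial type II) cells, the lung epithelium that secretes surfactant. The members were 35 genes taken by name from a list of macrophage and myeloid genes, and each was read on the probe set that the array annotation gives to that symbol alone. All 35 were measured, each by 1 probe set, out of 18166 genes in all. Cells of 4 male Sprague Dawley rats were used, and from each rat 1 well received AdGFP, an adenoviral vector for green fluorescent protein, and 1 well AdHIF1a, a vector for a constitutively active HIF1a mutant. Virus was added to the freshly isolated suspension for 3 h (multiplicity of infection 20, medium containing 2% fetal bovine serum), before plating on a gel of 80% collagen and 20% Matrigel under medium containing 5% rat serum. RNA came 24 h later. Rat and extraction day coincide. Both groups had received a virus, so no well shows untransduced cells. The sources used here do not give the age of the rats, the species of HIF1a or the promoter that drives it.

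Alveolar macrophages live on the surface of the alveolus beside ATII cells, clear surfactant and particles, and are a usual companion of ATII cells in cell isolates. They share with other myeloid cells the transcription factor PU.1 (gene Spi1), receptors for antibody and for microbial sugars and lipids that signal through small adaptors with an activation motif, scavenger receptors, and lysosomal proteases. HIF1a, the subunit of hypoxia-inducible factor whose stability depends on oxygen, acts both in epithelial cells and in macrophages, so a signal from the whole well does not show in which cell it arose.

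All values are log2 signals of single wells, and each difference is the AdHIF1a well less the AdGFP well of the same rat, averaged over 4 rats and given in log2 units ± SE from a limma fit that has the rat as a block. The threshold for a call was an adjusted p of 0.05 (Benjamini-Hochberg, all 18166 genes). Of the 18 measured HIF target genes in the comparison list, 18 rose, with a median difference of 1.66. The 8 epithelial markers averaged 11.33 to 11.42 in the AdGFP wells and 11.16 to 11.25 in the AdHIF1a wells. Of these, 4 fell (Cdh1, Nkx2-1, Epcam and Cldn18), or 50%, against 7.77% of all genes. The 9 measured ATII markers averaged 10.11 to 10.57 and 9.85 to 10.37, so both kinds of well carried the labelled cell type. Of the 35 myeloid members, 24 had a mean above the median of all gene means (6.27) and 11 above the upper quartile (8.56). Cd163, Adgre1 and C1qc lay below the lower quartile (4.26), where folds are compressed. Detection calls were not used here, so it was not tested which members were above background. In bulk RNA, fewer cells of a type and less RNA per cell cannot be told apart.

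Among the 35 myeloid genes, Mpeg1, Fcgr1a, Adgre1 and Lgmn fell in the AdHIF1a wells and Plek rose, while the other 30 did not pass the threshold. The called share was 14.3%, against 13.4% of all genes. In single directions, 4 of 35 members fell against 7.77% of all genes, and 1 of 35 rose against 5.68%. The median difference of the members was -0.16, against -0.005 over all genes. Without rat 1 the median of the members was -0.007. Differences were negative in all 4 rats for 12 members (34.3%, against 20.4% of all genes) and positive in all 4 rats for Plek alone (2.86%, against 17.9%). The groups did not overlap for Lgmn, Lcp1 and Cd48 downward (3 of 35, against 12.2% of all genes) and for Plek upward (1 of 35, against 10.3%), or 11.4% of the members against 22.5% of all genes in either direction. Without the rat as a block, 1 member fell (Lgmn) and 1 rose (Plek). Over all 18166 genes that fit called more than the paired fit did: 1672 fell and 1279 rose, against 1411 and 1032 with the block.

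**Figure D1:**
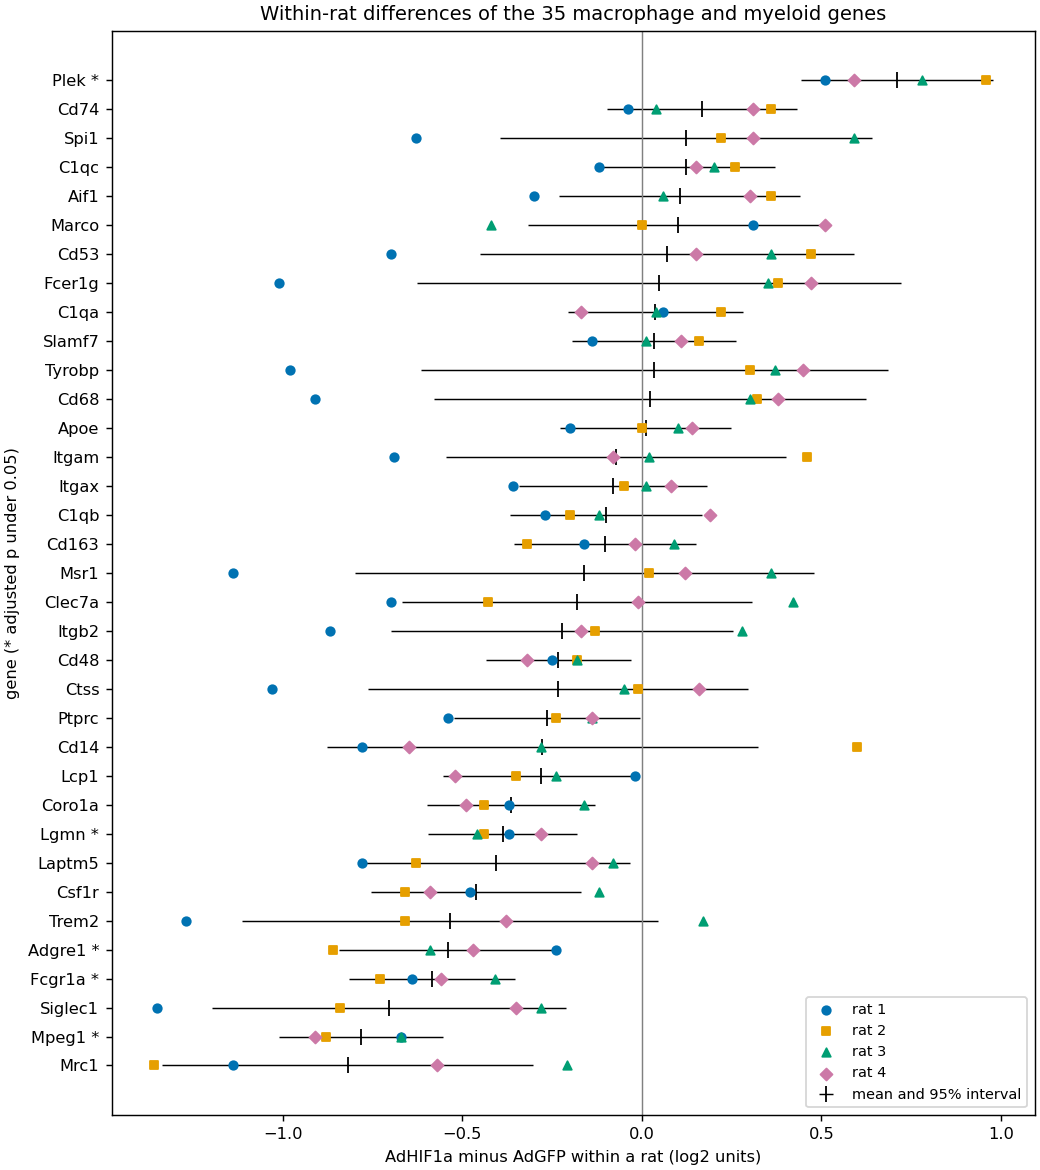
Within-rat differences (AdHIF1a minus AdGFP, log2 units, horizontal axis) of the 35 genes, ordered by their mean; coloured points are the 4 rats, black ticks and lines are the limma means with 95% intervals, and an asterisk marks an adjusted p under 0.05. Points of rat 1 lie far to the left of the other rats for Fcer1g, Tyrobp, Cd68 and Msr1, whereas the 4 points of Mpeg1, Fcgr1a, Lgmn and Plek lie together on one side of 0.

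Mpeg1, which encodes perforin-2, a pore-forming protein of phagocytes, read 5.55, 4.63, 4.70 and 4.66 with AdGFP (rats 1 to 4) and 4.88, 3.75, 4.03 and 3.75 with AdHIF1a. Every AdHIF1a well lay below the AdGFP well of its rat, although the groups overlap because rat 1 was high in both. The difference was -0.78 ± 0.09 (adjusted p = 0.00746, 1.72-fold lower), and the call was lost without rat 2 (adjusted p = 0.0544). The levels end near or below the lower quartile of genes, so the fold is not an exact size. Fcgr1a, the high-affinity Fc receptor for IgG, read 6.09, 6.37, 5.55 and 5.77 with AdGFP (rats 1 to 4) and 5.45, 5.64, 5.14 and 5.21 with AdHIF1a. It fell in each rat by a like amount, with differences of -0.64, -0.73, -0.41 and -0.56 in rats 1 to 4, a mean of -0.58 ± 0.09 and adjusted p = 0.0162. The call was lost without rat 2 (0.0928) or rat 4 (0.0835).

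Adgre1, an adhesion receptor used as a macrophage marker, read 4.12, 4.94, 4.48 and 3.95 with AdGFP (rats 1 to 4) and 3.88, 4.08, 3.89 and 3.48 with AdHIF1a. All of these are low signals, and the difference of -0.54 ± 0.12 (adjusted p = 0.0434) was no longer called without rat 2, 3 or 4 (0.161, 0.143 and 0.151), after median centring (0.0552) or after quantile normalization (0.0521). Lgmn, the lysosomal protease legumain, is also made outside leukocytes and read 11.66, 11.75, 11.61 and 11.62 with AdGFP (rats 1 to 4) and 11.29, 11.31, 11.15 and 11.34 with AdHIF1a. The lowest AdGFP well was above the highest AdHIF1a well. Its difference was -0.39 ± 0.08, or 1.31-fold lower (adjusted p = 0.0370), and the spread between rats was small, but no set of 3 rats kept the call (adjusted p of 0.0713, 0.175, 0.128 and 0.119 without rats 1 to 4 in turn), nor did median centring (0.0522).

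Plek encodes pleckstrin, a substrate of protein kinase C in platelets and leukocytes, and was the member that rose. It read 5.99, 6.43, 6.16 and 6.15 with AdGFP (rats 1 to 4) and 6.50, 7.39, 6.94 and 6.74 with AdHIF1a. Rat 2 was highest in both groups, and all AdHIF1a wells lay above all AdGFP wells. The difference was 0.71 ± 0.11, or 1.64-fold higher (adjusted p = 0.0144), and it was not called without rat 2, 3 or 4 (0.0732, 0.0657 and 0.0680).

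**Figure D2:**
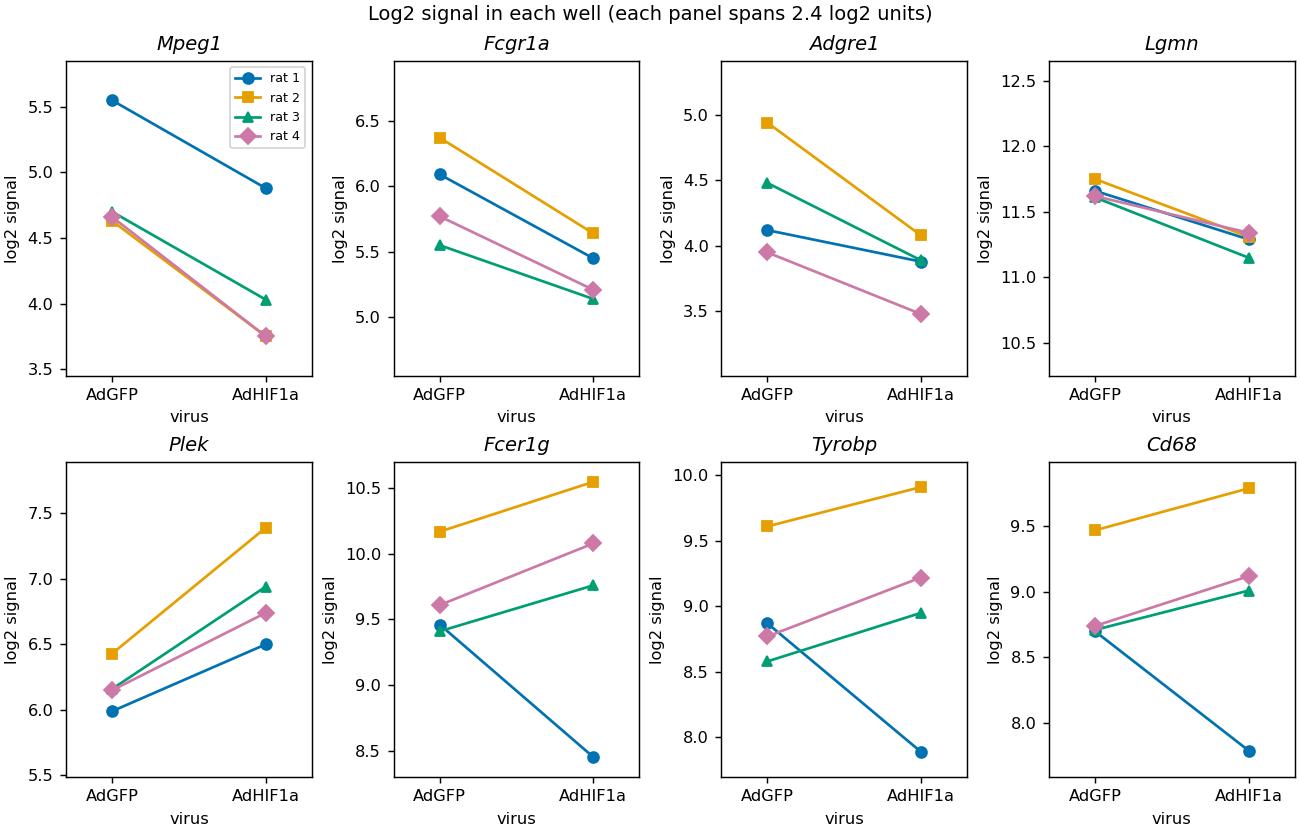
Log2 signal (vertical axis) in each well by virus (horizontal axis), with a line joining the 2 wells of a rat; the upper row and Plek are the 5 called members, and Fcer1g, Tyrobp and Cd68 are members lower in rat 1 and higher in the other rats. All lines of the called members slope the same way within a gene, and for Fcer1g, Tyrobp and Cd68 the line of rat 1 falls while the other 3 climb.

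Promoter sequence was looked up because 12 members shared a negative difference in all rats. RefSeq's GRCr8 table held an entry for 24 of the 35 genes. The 250 bases before the start were searched on both strands for the core of the hypoxia response element (ACGTG or GCGTG) and for GAGGAA, the core bound by PU.1. The palindrome CACGTG counts as a match on both strands, and neighbouring matches of different cores may share an end letter. GAGGAA was present in 15 of 24 member promoters (62.5%) and in 23.3% of the 14564 promoters of all genes tested. The hypoxia core was present in 6 of 24 (25%) and in 45.5% of all. Both shares cover all 24 members with an entry, not only those among the 12. Of the 3 members called lower that have an entry, 1 held GAGGAA and 1 the hypoxia core. These matches describe letters and not binding. The promoters below belong to the called members with an entry (Mpeg1, Adgre1 and Lgmn) and to Mrc1 and Laptm5, whose differences lay below the median of the other members in every rat. Capitals mark a match to a core on either strand, and each sequence runs 5′ to 3′ toward the gene.
Mpeg1 (chr1:218876644-218876893, plus strand): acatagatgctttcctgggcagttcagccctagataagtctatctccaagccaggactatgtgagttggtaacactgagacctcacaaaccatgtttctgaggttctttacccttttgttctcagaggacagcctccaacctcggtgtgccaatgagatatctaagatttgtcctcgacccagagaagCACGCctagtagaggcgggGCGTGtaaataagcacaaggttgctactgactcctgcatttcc
Adgre1 (chr9:2329190-2329439, plus strand): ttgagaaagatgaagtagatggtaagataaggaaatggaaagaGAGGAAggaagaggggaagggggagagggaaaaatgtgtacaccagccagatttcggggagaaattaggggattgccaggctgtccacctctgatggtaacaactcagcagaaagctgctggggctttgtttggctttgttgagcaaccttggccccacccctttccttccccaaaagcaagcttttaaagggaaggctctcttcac
Lgmn (chr6:127347329-127347578, minus strand): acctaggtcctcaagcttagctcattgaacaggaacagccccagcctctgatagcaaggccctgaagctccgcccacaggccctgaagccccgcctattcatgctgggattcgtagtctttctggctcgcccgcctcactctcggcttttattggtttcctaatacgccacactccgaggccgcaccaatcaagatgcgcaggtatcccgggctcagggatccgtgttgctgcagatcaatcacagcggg
Mrc1 (chr17:82157475-82157724, plus strand): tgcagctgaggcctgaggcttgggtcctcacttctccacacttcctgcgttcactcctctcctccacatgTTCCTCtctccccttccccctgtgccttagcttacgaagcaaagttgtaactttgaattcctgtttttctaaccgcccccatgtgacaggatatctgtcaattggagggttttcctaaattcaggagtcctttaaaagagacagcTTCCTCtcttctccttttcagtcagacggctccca
Laptm5 (chr5:148371630-148371879, plus strand): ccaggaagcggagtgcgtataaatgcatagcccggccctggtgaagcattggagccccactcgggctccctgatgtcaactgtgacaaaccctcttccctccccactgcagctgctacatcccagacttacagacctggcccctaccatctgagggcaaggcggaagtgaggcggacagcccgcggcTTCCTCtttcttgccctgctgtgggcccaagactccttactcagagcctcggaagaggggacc
Mpeg1 held 2 matches to GCGTG and none to GAGGAA, Adgre1 and Laptm5 held 1 GAGGAA each, Mrc1 held 2, and Lgmn held neither core.

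By sums of squares, the members varied mostly between rats. Of the variance over the 35 genes, 67.2% lay between rats, 16.9% between viruses and 15.8% was left over, whereas over all genes 26.1% lay between rats and 57.5% between viruses. The sum of squares between rats exceeded that between viruses for 29 of 35 members (82.9%) and for 58.2% of all genes. Variance shares here and below are shares of the total sum of squares, not adjusted for degrees of freedom. A share over several genes pools their sums of squares, so genes with large differences weigh most. Among the 18 HIF targets, 97.0% lay between viruses. Rats have more degrees of freedom than viruses, which raises the share between rats for any gene. Rat 2 had the highest signal for 24 members in the AdGFP wells and for 23 in the AdHIF1a wells. Rat 1 had the lowest for 16 and 27. Across the members, the 2 wells of a rat deviated from their group means together (r of 0.37 to 0.71), and wells of different rats at -0.63 to 0.40. Deviations from a group mean cancel out over the rats, so a positive r within rats pulls that between rats downward. The genes share arrays and are not independent.

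Rat 1 also had the widest gap between its wells. In this rat 32 of 35 members were lower with AdHIF1a (91.4%, against 49.1% of all genes), with a median difference of -0.54. By more than 0.5 downward, 18 of 35 members differed, against 8.14% of all genes. In rats 2, 3 and 4 the members that were lower numbered 19, 16 and 19, and the medians were -0.05, 0.01 and -0.02. These counts are 54.3%, 45.7% and 54.3% of the members, against 49.5%, 54.3% and 50.4% of all genes. The mean log2 signal of the 29 leukocyte-restricted members, which leave out Cd74, Apoe, Lgmn, Cd14, Cd68 and Ctss, was 6.89, 7.42, 6.94 and 6.97 with AdGFP in rats 1 to 4 and 6.38, 7.25, 6.96 and 6.88 with AdHIF1a. Rat 1's AdHIF1a well was the lowest of the 8 and both wells of rat 2 the highest. The 38 measured genes of a second myeloid list, which holds no member, averaged 6.44, 6.83, 6.48 and 6.43 and then 6.04, 6.66, 6.51 and 6.34, in the same order of extremes. Epithelial markers differed in rat 1 by -0.14 on average, and by -0.17, -0.17 and -0.20 in the others. T and NK cell markers averaged 4.71 to 5.07 in the AdGFP wells and 4.76 to 4.87 in the AdHIF1a wells, with 1 of 14 above the median of all genes. The leukocyte-restricted label is an assumption about each gene and was not tested. Nor was it tested whether the number of macrophages differed between the wells of rat 1.

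**Figure D3:**
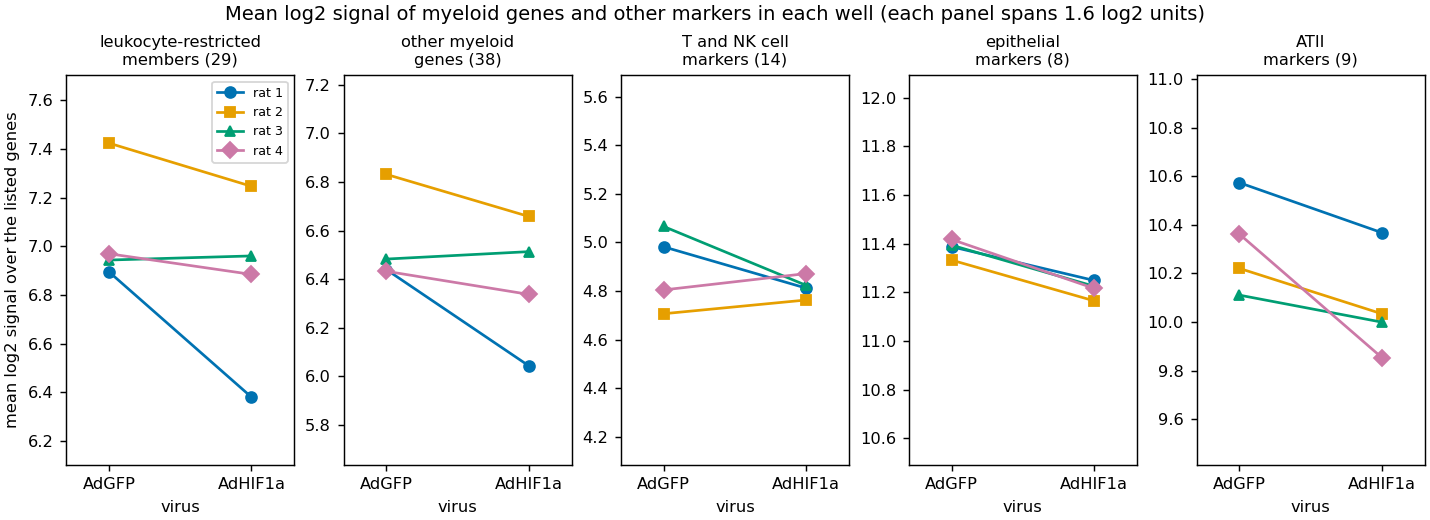
Mean log2 signal (vertical axis, 1.6 units in each panel) over the genes of a list in each well by virus (horizontal axis), lines joining the wells of a rat; the number of genes is in each title. Both myeloid panels show rat 2 on top and a steep line for rat 1 (6.89 to 6.38 for the members), which the epithelial panel does not show.

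A pattern of lower in rat 1 and higher in rats 2 to 4 was shown by 10 members (28.6%), and by 6.49% of all genes. They were Cd68, Msr1, Cd74, Fcer1g, Tyrobp, Aif1, C1qc, Spi1, Cd53 and Slamf7. The opposite pattern was shown by 0 members and by 8.83% of all genes. The pattern was read from the same differences that define it and has no test of its own. Array medians over all probe sets had the same signs, at 5.13, 5.00, 5.07 and 5.04 with AdGFP (rats 1 to 4) and 5.02, 5.19, 5.16 and 5.20 with AdHIF1a. The median differences over all named genes were 0, 0, -0.04 and -0.01. Small differences, such as those of Slamf7 and C1qc, are of the size of the array offsets. How much of the pattern follows these offsets was not tested.

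The ITAM receptor and adaptor genes held both kinds of member. Fcer1g, the signalling chain shared by Fc receptors, read 9.46, 10.17, 9.41 and 9.61 with AdGFP (rats 1 to 4) and 8.45, 10.55, 9.76 and 10.08 with AdHIF1a. The AdHIF1a well was the lower one in rat 1 and the higher one in the other rats (-1.01, 0.38, 0.35 and 0.47), and the mean difference of 0.05 ± 0.27 had a 95% interval of -0.63 to 0.72. Tyrobp, the adaptor that pairs with Trem2 and other receptors, read 8.87, 9.61, 8.58 and 8.77 with AdGFP (rats 1 to 4) and 7.89, 9.91, 8.95 and 9.22 with AdHIF1a. Its differences of -0.98, 0.30, 0.37 and 0.45 followed those of Fcer1g closely. Without rat 1, Fcer1g and Tyrobp differed by 0.40 and 0.37, with limma adjusted p of 0.0621 and 0.0743, and neither was called. Trem2, a lipid-sensing receptor of macrophages, read 7.08, 7.34, 6.24 and 6.34 with AdGFP (rats 1 to 4) and 5.81, 6.68, 6.41 and 5.96 with AdHIF1a. It was lower in 3 of 4 rats, at -0.54 ± 0.23 (adjusted p = 0.212), so the receptors Fcgr1a and Trem2 gave negative differences in rats 2 and 4 where their adaptors gave positive ones. Whether the difference of Fcgr1a differs from that of Fcer1g was not tested.

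Of the 8 scavenger and pattern receptors, 0 passed the threshold. The mannose receptor gene Mrc1 read 6.53, 8.35, 6.67 and 7.37 with AdGFP (rats 1 to 4) and 5.39, 6.99, 6.46 and 6.80 with AdHIF1a, and its difference of -0.82 ± 0.21 was the most negative of the members (adjusted p = 0.0586). All 4 rats were lower, rat 3 by only 0.21. Mrc1 passed the threshold after median centring (0.0320), after quantile normalization (0.0394), with array weights (0.0464) and with the trended prior (0.0455). It also passed with each of the low-signal filters (0.0278 and 0.0474). Its limma adjusted p was 0.298 with no replicate block and 0.249 with the rat as a random block. Siglec1, the sialic acid-binding receptor sialoadhesin, read 7.05, 7.68, 6.73 and 6.61 with AdGFP (rats 1 to 4) and 5.70, 6.84, 6.45 and 6.26 with AdHIF1a. It was lower in 4 of 4 rats, at -0.70 ± 0.20 (adjusted p = 0.0773). Siglec1 passed after median centring (0.0300), after quantile normalization (0.0371) and with the filter at the median (0.0376). With no replicate block its limma adjusted p was 0.147, and with the rat as a random block 0.119.

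Cd68, a lysosomal glycoprotein abundant in macrophages, read 8.70, 9.47, 8.71 and 8.74 with AdGFP (rats 1 to 4) and 7.79, 9.79, 9.01 and 9.12 with AdHIF1a. Rat 2 stood above the other AdGFP wells, which lay close together, and rat 1 was the only rat with a lower AdHIF1a well. Its mean difference was 0.02 ± 0.24, and 0.33 without rat 1 (adjusted p = 0.0864). Msr1, a class A scavenger receptor, read 8.93, 9.90, 9.08 and 9.15 with AdGFP (rats 1 to 4) and 7.79, 9.92, 9.44 and 9.27 with AdHIF1a, with the lower value again in rat 1 and a mean difference of -0.16 ± 0.26. Clec7a, the beta-glucan receptor dectin-1, read 8.39, 10.05, 8.64 and 9.27 with AdGFP (rats 1 to 4) and 7.69, 9.62, 9.06 and 9.26 with AdHIF1a. Most of its spread was between rats: 88.9% of its variance lay between rats. Its difference was -0.18 ± 0.20.

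Cd14, the co-receptor for bacterial lipopolysaccharide, read 8.44, 8.23, 8.63 and 8.34 with AdGFP (rats 1 to 4) and 7.66, 8.83, 8.35 and 7.69 with AdHIF1a. The rats disagreed in sign, with differences of -0.78, 0.60, -0.28 and -0.65 and a mean of -0.28 ± 0.24. Marco, a scavenger receptor typical of alveolar macrophages, read 5.24, 5.59, 5.68 and 5.29 with AdGFP (rats 1 to 4) and 5.55, 5.59, 5.26 and 5.80 with AdHIF1a, and Cd163, the haemoglobin scavenger receptor, read 3.63, 3.58, 3.51 and 3.46 with AdGFP (rats 1 to 4) and 3.47, 3.26, 3.60 and 3.44 with AdHIF1a. Both signals lay below the median of all genes, and those of Cd163 below the lower quartile, and the groups overlapped. Their differences were 0.10 ± 0.17 and -0.10 ± 0.10.

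Among the 8 pan-leukocyte genes, 5 were lower in all 4 rats without a call. Ptprc, the leukocyte common antigen CD45, read 6.67, 7.61, 6.87 and 6.89 with AdGFP (rats 1 to 4) and 6.13, 7.37, 6.73 and 6.75 with AdHIF1a. Rat 2 was highest in both groups, and the difference was -0.27 ± 0.10 (adjusted p = 0.174). Laptm5, a lysosomal membrane protein of blood cells, read 8.83, 9.93, 9.30 and 9.30 with AdGFP (rats 1 to 4) and 8.05, 9.30, 9.22 and 9.16 with AdHIF1a. The difference of -0.41 ± 0.15 (adjusted p = 0.150) came mainly from rats 1 and 2, at -0.78 and -0.63, with -0.08 and -0.14 in rats 3 and 4. Coro1a, an actin regulator of leukocytes, read 6.87, 7.72, 7.45 and 7.45 with AdGFP (rats 1 to 4) and 6.50, 7.28, 7.29 and 6.96 with AdHIF1a. It differed by -0.36 ± 0.09 (adjusted p = 0.0619), and passed with array weights (0.0401) and with each of the low-signal filters (0.0201 and 0.0418). With no replicate block its limma adjusted p was 0.348, and with the rat as a random block 0.295.

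Lcp1, the actin-bundling protein L-plastin, read 11.51, 11.65, 11.70 and 11.67 with AdGFP (rats 1 to 4) and 11.49, 11.30, 11.46 and 11.15 with AdHIF1a. Rat 1 hardly differed between its wells, at -0.02, yet the groups did not overlap, and the mean was -0.28 ± 0.11 (adjusted p = 0.168). Cd48, a surface ligand of leukocytes, read 11.36, 11.40, 11.38 and 11.52 with AdGFP (rats 1 to 4) and 11.11, 11.22, 11.20 and 11.20 with AdHIF1a. The groups did not overlap here either, the differences of -0.25, -0.18, -0.18 and -0.32 were small and alike, and the mean of -0.23 ± 0.08 (adjusted p = 0.135) was called with the trended prior (0.0238) and with the filter at the median (0.0415). In Lcp1, Cd48 and Lgmn only 11.6%, 12.3% and 7.05% of the variance lay between rats. They did not share the rat order of Ptprc, of whose variance 86.3% lay between rats. Lcp1 and Cd48 were counted as leukocyte-restricted, yet averaged 11.49 and 11.30 over all wells, near Epcam at 11.53 and above Ptprc at 6.88. In which cells these signals arose was not tested.

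Spi1, the gene of PU.1, read 6.84, 7.88, 6.84 and 7.24 with AdGFP (rats 1 to 4) and 6.21, 8.10, 7.43 and 7.55 with AdHIF1a. It was lower in rat 1 and higher in the others (-0.63, 0.22, 0.59 and 0.31), with a mean of 0.12 ± 0.21 and a 95% interval of -0.40 to 0.64. Cd53, a tetraspanin of leukocytes, read 9.05, 9.43, 9.34 and 9.09 with AdGFP (rats 1 to 4) and 8.35, 9.90, 9.70 and 9.24 with AdHIF1a and had the same signs, at 0.07 ± 0.21 on average. Thus of the pan-leukocyte genes Plek rose, 5 were lower in all rats without a call, and Spi1 and Cd53 had opposite signs between rats. Whether the differences of these genes differ from each other was not tested.

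Of the 4 surface identity genes, Adgre1 was called. Csf1r, the receptor for the macrophage growth factor CSF1, read 6.93, 8.09, 6.58 and 7.31 with AdGFP (rats 1 to 4) and 6.45, 7.43, 6.46 and 6.72 with AdHIF1a. It was lower in 4 of 4 rats, at -0.46 ± 0.12 (adjusted p = 0.0590), against a spread between rats that took 77.9% of its variance. Csf1r passed after quantile normalization (0.0427), with array weights (0.0381) and with either filter (0.0230 and 0.0433). Its limma adjusted p was 0.437 with no replicate block and 0.382 with the rat as a random block. Aif1, a calcium-binding protein of macrophages, read 6.09, 6.44, 5.95 and 5.66 with AdGFP (rats 1 to 4) and 5.79, 6.80, 6.01 and 5.96 with AdHIF1a, and the groups overlapped. Slamf7, a receptor of the SLAM family, stayed near the lower quartile at 4.37, 4.14, 4.30 and 4.37 under AdGFP and 4.23, 4.30, 4.31 and 4.48 under AdHIF1a. Their differences were 0.10 ± 0.13 and 0.04 ± 0.09.

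The complement genes C1qa, C1qb and C1qc encode the chains of C1q, which tissue macrophages secrete. C1qa read 5.35, 5.33, 5.55 and 5.69 with AdGFP (rats 1 to 4) and 5.41, 5.55, 5.59 and 5.52 with AdHIF1a. C1qb read 4.72, 4.79, 4.76 and 4.47 under AdGFP and 4.45, 4.59, 4.64 and 4.66 under AdHIF1a, and C1qc read 4.17, 4.31, 4.27 and 4.0 under AdGFP and 4.05, 4.57, 4.47 and 4.15 under AdHIF1a. All 3 lay below the median of all genes in both groups, with overlapping wells and differences of 0.04 ± 0.10, -0.10 ± 0.11 and 0.12 ± 0.10.

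The leukocyte integrin genes followed the rats. Itgb2, the common beta chain, read 7.76, 8.81, 8.21 and 8.05 with AdGFP (rats 1 to 4) and 6.89, 8.68, 8.49 and 7.88 with AdHIF1a. Itgam, the alpha chain of complement receptor 3, read 6.31, 6.46, 7.11 and 6.70 under AdGFP and 5.62, 6.92, 7.13 and 6.62 under AdHIF1a, and Itgax, the alpha chain abundant on alveolar macrophages and dendritic cells, read 6.19, 6.66, 6.31 and 6.29 under AdGFP and 5.83, 6.61, 6.32 and 6.37 under AdHIF1a. Rat 1 was the lowest rat for each of the 3 genes in both groups. Their differences were -0.22 ± 0.19, -0.07 ± 0.19 and -0.08 ± 0.11, with adjusted p of 0.530, 0.856 and 0.694.

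In the group of lysosomal, antigen-handling and lipid genes, Mpeg1 and Lgmn fell and 3 members were not called. Cd74, the invariant chain of class II molecules, which ATII cells also make, read 12.68, 12.17, 12.42 and 12.13 with AdGFP (rats 1 to 4) and 12.64, 12.53, 12.46 and 12.44 with AdHIF1a. Its difference was 0.17 ± 0.11 (adjusted p = 0.384). Ctss, cathepsin S, which cuts the invariant chain, read 7.48, 7.84, 7.47 and 7.18 with AdGFP (rats 1 to 4) and 6.45, 7.83, 7.42 and 7.34 with AdHIF1a. Rat 1 differed by -1.03 and the others by -0.05 to 0.16. Apoe, the lipid carrier apolipoprotein E, read 5.38, 5.29, 5.08 and 5.33 with AdGFP (rats 1 to 4) and 5.18, 5.29, 5.18 and 5.47 with AdHIF1a, all below the median of all genes, with a difference of 0.01 ± 0.10.

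To set aside what the members shared within a rat, the median difference of the other leukocyte-restricted members in that rat was subtracted from each member's difference. On this scale Mrc1, Fcgr1a, Laptm5, Mpeg1 and Siglec1 were negative in all 4 rats, and Plek, Cd74, Aif1, C1qc and Apoe were positive in all 4. Before subtraction Cd74, Aif1, C1qc and Apoe were lower in rat 1, and none of them was called. The median difference of the leukocyte-restricted members in rat 1 was -0.54, so a small negative difference there turned positive. Mpeg1 gave -0.16, -0.72, -0.69 and -0.86 in rats 1 to 4, and Fcgr1a gave -0.13, -0.57, -0.42 and -0.51. Adgre1 and Lgmn, both lower in every rat before subtraction, were above the shared median in rat 1 (0.34 and 0.17) and below it in the others. Plek gave 1.09, 1.15, 0.77 and 0.70. The subtraction is a description and has no test.

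**Figure D4:**
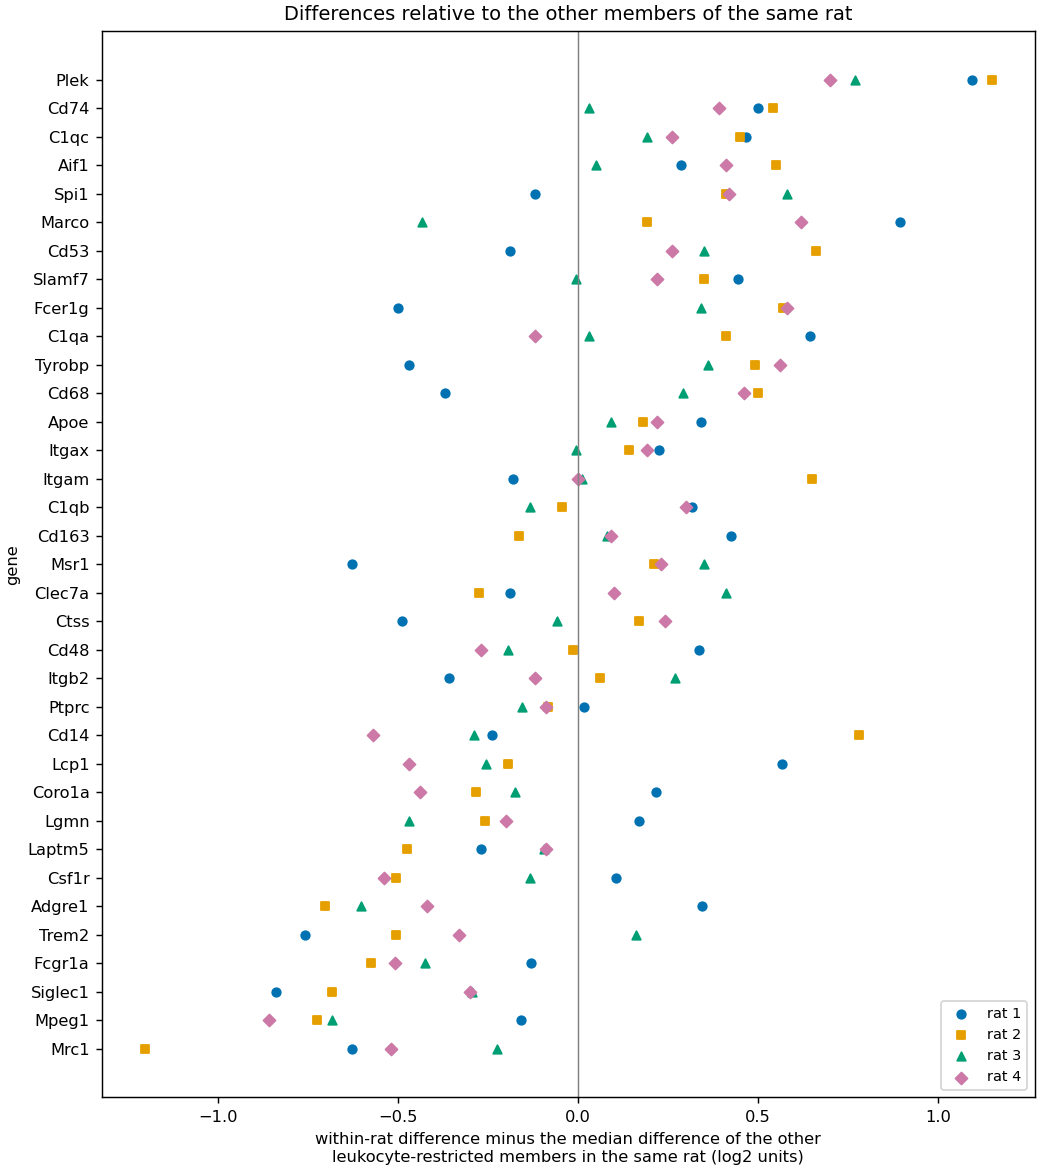
Within-rat differences of each gene after subtraction of the median difference of the other leukocyte-restricted members in the same rat (log2 units, horizontal axis); coloured points are the 4 rats and genes are ordered by their mean. Plek stands apart at the top with all points at or above 0.70, and Mrc1, Mpeg1, Siglec1, Fcgr1a and Laptm5 have all 4 points below 0.

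A second way was to add the mean signal of the leukocyte-restricted members, leaving out the gene tested, to the paired fit as a covariate. The differences were then -0.81 for Mpeg1, -0.53 for Fcgr1a, -0.65 for Adgre1, -0.40 for Lgmn and 0.80 for Plek, against -0.78, -0.58, -0.54, -0.39 and 0.71 without it. None of the 5 was called in this fit (limma adjusted p of 0.0533, 0.0997, 0.0995, 0.152 and 0.0815), which has fewer residual degrees of freedom and called 256 genes higher and 190 lower in all. With the second myeloid list as the covariate they were -0.80, -0.50, -0.66, -0.40 and 0.79, again without a call. The median of the members was 0.003 in both fits. The first covariate was built from the members themselves, so a member median near 0 was fixed by that fit and is not a result.

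The second myeloid list gave a like picture, with 3 of 38 measured genes lower, 1 higher and a median difference of -0.12 (called share 10.5%, against 13.4% of all genes). The lower genes were Alox5, the enzyme that opens leukotriene synthesis, at -0.85 ± 0.14, Sirpa, a receptor for the CD47 signal that is also found outside leukocytes, at -0.46 ± 0.09, and C3ar1, the receptor for complement fragment C3a, at -0.88 ± 0.18. Fgr, a Src-family kinase of myeloid cells, rose by 0.54 ± 0.09. Limma adjusted p lay between 0.0165 and 0.0330 for these 4 genes. Of 13 measured genes linked to lipid handling and to the lung macrophage, Chi3l1, a chitinase-like secreted protein, rose by 1.75 ± 0.15 and Plin2, a coat protein of lipid droplets, by 0.80 ± 0.11. Cd9, a tetraspanin, and Pparg, the lipid-sensing receptor that alveolar macrophages need, gave -0.87 ± 0.09 and -0.55 ± 0.12 and were called lower. The called share of this list was 30.8%, against 13.4% of all genes. ATII cells can express several of its genes, and the cell of origin was not tested.

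Of 10 measured genes in the class II list, 2 were lower and 0 higher, with a median difference of -0.38. The called share was 20%, against 13.4% of all genes. RT1-DMa and RT1-DMb, the chains of the molecule that loads peptides onto class II, fell by 0.89 ± 0.10 and 0.82 ± 0.13 (limma adjusted p = 0.00651 and 0.0145), while Cd74 differed by 0.17 ± 0.11. Whether Cd74 differs from them was not tested. Of 24 cytokine and mediator genes that macrophages and epithelial cells can make, Ccl5 and Cxcl10, which attract T cells, rose by 2.86 ± 0.47 and 2.27 ± 0.46 (adjusted p = 0.0186 and 0.0316), and 0 fell. The called share of this list was 8.33%, against 13.4% of all genes. Its median difference was 0.33 over all rats, and -0.28, 0.88, 0.04 and 0.42 in rats 1 to 4.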

How the data were processed

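RNA from 8 wells (4 rats, 1 well of each virus per rat) was measured on Affymetrix arrays. The authors deposited a log2 signal for each of 36685 probe sets, made with Affymetrix Expression Console per the submitters' processing notes, with summarization, normalization, version and genome build not given in the sources used here, and the array number limits the precision. Probe sets with 1 symbol (18511) entered the comparison, those with several (575) or none (17599) did not, and the highest mean stood for a gene with several. The paired comparison used limma 3.58.1 under R 4.3.3 (lmFit, then eBayes on all probe sets, rat as a fixed block, two-sided, Benjamini-Hochberg over 18166 genes, no filter), tested on simulated data. The pairing comes from the series' design. Wells of a rat deviated from their group means together (r of 0.18 to 0.26 across genes), wells of different rats at -0.22 to 0.08. Deviations from a group mean cancel out over the rats, so part of this gap is built in. No 2 arrays shared more than 1.95% of values. All 35 gene identifiers matched the GRCr8 reference, with 0 symbols changed. Members, lists and the naming rule (every member, plus up to 4 called genes of each other list, or the 2 with the smallest p) were chosen with earlier results of these data known. Alternatives are in the closing section.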

Additional observations from a re-analysis of the deposited data

Results flagged for a closer look

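Each gene's 4 values per virus and 4 within-rat differences were checked for a value standing far from the other 3 (Dixon's ratio above 0.829), and 6 of 105 sets were marked; chance marks about 1 in 20 such sets. Of the differences, rat 1 stood apart for Cd68 (-0.91, the others 0.30 to 0.38), Fcer1g (-1.01, the others 0.35 to 0.47) and Tyrobp (-0.98, the others 0.30 to 0.45). The AdHIF1a well of rat 1 also stood apart for Laptm5 (8.05, the others 9.16 to 9.30). In the AdGFP wells, rat 2 stood apart for Cd68 (9.47, the others 8.70 to 8.74) and rat 1 for Mpeg1 (5.55, the others 4.63 to 4.70). Mpeg1 was thus highest in rat 1, and was so with AdHIF1a too. Rat 1 was the lowest rat for 16 members with AdGFP and for 27 with AdHIF1a.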

How the results depend on the processing

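The 5 called members kept their sign under all 17 alternatives in which they were fitted. For most of these this was fixed beforehand. Several leave the mean paired difference unchanged, and leaving out 1 rat cannot turn a gene whose rats share a sign. Only the normalizations, the array weights and the covariates could have turned a sign. Members called lower numbered 4 in the paired fit, 1 with no replicate block or with the rat as a random replicate block, 7 with array weights, 1 at an adjusted p under 0.01, 0 with either myeloid score as a covariate, and 8 with the variance prior from the named genes alone, an alternative chosen after seeing the data. Members called higher numbered 1, and 0 at an adjusted p under 0.01 or with either covariate. Leaving out 1 rat gave 0 to 3 members lower, 0 to 1 higher, and a median member difference of -0.25 to -0.007. All genes called higher and lower numbered 1032 and 1411 in the paired fit, and 315 to 775 and 246 to 1231 with 1 rat left out. At an adjusted p under 0.01 they numbered 349 and 307, with the member score as covariate 256 and 190, and with the other myeloid score 193 and 89. Median centring gave 635 higher and 1324 lower, and the named-gene prior 1576 higher. With no replicate block 1279 genes were called higher and 1672 lower, and with the random block 1370 and 1809. Array weights gave 1331 higher and 1933 lower. Both covariate fits and the fits of 3 rats have fewer residual degrees of freedom; other causes were not tested. Of 581 single-gene values under the alternatives, 523 kept their side of the threshold and their sign where called, 36 lost the call, 22 gained one (5 genes) and 0 called values turned. Members near the lower quartile of signal give no exact fold.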

Other observations

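Markers of other blood cells gave few calls. The called shares were 7.14% of T and NK cell, 12.5% of B cell and 8.33% of neutrophil markers, against 13.4% of all genes. Of 14 T and NK cell markers, Zap70, a kinase of the T cell receptor, was higher by 0.94 ± 0.13 (limma adjusted p = 0.0122), while Cd3e and Cd3g, defining chains of that receptor, gave low signals of 4.33 and 3.96. Of 8 measured B cell markers, Fcer2, the low-affinity IgE receptor, was lower by 1.02 ± 0.18 (adjusted p = 0.0208). Of 12 neutrophil markers, S100a9 was lower, going from 4.05 to 3.47, both low signals (adjusted p = 0.0218). In limma, 0 of 7 dendritic, 0 of 6 mast, 0 of 7 endothelial and 0 of 8 fibroblast markers were called, with 0 of each at an unadjusted p under 0.05. Among these the smallest adjusted p belonged to Ccr7 (0.300) and Zbtb46 (0.374), Hdc (0.192) and Cpa3 (0.361), Cdh5 (0.217) and Egfl7 (0.246), and Pdgfra (0.322) and Col1a1 (0.374). In the 4 HIF targets with the smallest adjusted p, the differences were 5.94 ± 0.09 for Car12, 2.48 ± 0.08 for Cxcr4, 1.98 ± 0.09 for Pdk1 and 1.89 ± 0.09 for Egln1. Of the 9 ATII markers, Sftpa1 (0.89 ± 0.10) and Sftpb (0.69 ± 0.11) were higher and Napsa (-1.52 ± 0.18), Lamp3 (-0.78 ± 0.13) and Lpcat1 (-0.80 ± 0.15) lower. Their called share was 55.6%, against 13.4% of all genes.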
